A study of Caenorhabditis elegans with 2 samples.

Results

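The genes described here encode splicing factors and the proteins of the small nuclear ribonucleoproteins (snRNPs), and they were read as possible binding places of F22D6.2 in whole Caenorhabditis elegans. They were defined by name, as the protein-coding genes called rsp, snr, prp, uaf, sfa, sftb, hrp, hrpa, hrpf or rnp with a number, in the Ensembl gene models of the WBcel235 assembly. The rule found 47 of 19985 protein-coding genes and used no binding value. The group itself was proposed with earlier results of these data known. A name is not a proof of function, and among the rnp genes in particular some proteins bind RNA outside splicing.

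The study mapped F22D6.2 by chromatin immunoprecipitation and sequencing (ChIP-seq), in which DNA bound by a tagged protein is recovered with an antibody and counted along the genome. There was 1 group of 2 samples, labelled as biological replicates 1 and 2. Both were hermaphrodite young adults of strain OP399, unc-119(tm4063) III with the transgene wgIs399, collected 67 hours past a synchronization of L1 larvae that had been bleached and starved. The age is given as unknown. All animals carried the same transgene, a stable line with F22D6.2 joined at its C-terminus to GFP and FLAG, and the precipitation used an antibody against GFP. In the annotation the symbol of F22D6.2 is mstr-1. With 1 group, the design has no contrast between conditions. Whole animals were used, so a value is an average over tissues, and the sources used here do not say in which cells the tagged protein was present. The authors deposited lists of regions for replicate 1 (25000 regions), for replicate 2 (23268) and for both replicates pooled (26002), and a thresholded set of 798 taken from them by irreproducible discovery rate (IDR), a measure of rank agreement. On these values the thresholded set is the 798 highest regions of the pooled list, with the same signal values, so it is no separate measurement. The first 3 lists hold peaks together with background regions, so a listed region is not by itself a binding site. The same control served both replicates, and the depth of the libraries is unknown.

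Introns are removed from pre-mRNA by the spliceosome, which is built from the U1, U2, U4, U5 and U6 snRNPs. Each of the Sm-class snRNPs, U1, U2, U4 and U5, carries a ring of Sm proteins around its RNA. SR proteins and hnRNP proteins bind the pre-mRNA and steer which splice sites are used, U2AF and SF1 recognise the end of the intron, and SF3a and SF3b join the U2 snRNP at the branch site. The Prp factors, first named in yeast, assemble, activate and rearrange the spliceosome. In C. elegans many genes are transcribed in operons, and many others lie head to head with a neighbour, so that a single stretch of DNA stands before a pair of genes.

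For each gene, the highest summit within 500 bp of its annotated 5' end was taken from each list, with the authors' signal value. This value comes from the authors' peak calling against the control. Its scale is unknown here, and it serves only to rank and describe regions within a list. Distances are given upstream of the 5' end or inside it, in the direction of the gene. A gene with no summit in that window is called not listed. The sequences at the summits carry the map, and 7 of the 200-base windows centred on pooled summits are printed here for the genes with the highest values or with letters that recur among them. They were read from the RefSeq copy of WBcel235 (ce11) on the strand of the named gene, 5' to 3'. Capitals mark the letters TTTCAG, the repeat GAGAGA, the longer string CTGCGTCT, the palindrome TTCGAA, the strings TTGCGG with TGCGTC, and finally GCGCNCCAC, in which N is any base, on either strand. The window of hrpa-1 holds none of these and is not printed. Its pooled value, 53.6, was above those of the printed hrpf-2, rsp-3 and rsp-5 with snr-3. The printed windows thus do not show how often the letters occur among high summits.
snr-4, chrV:11979976-11980175, minus strand: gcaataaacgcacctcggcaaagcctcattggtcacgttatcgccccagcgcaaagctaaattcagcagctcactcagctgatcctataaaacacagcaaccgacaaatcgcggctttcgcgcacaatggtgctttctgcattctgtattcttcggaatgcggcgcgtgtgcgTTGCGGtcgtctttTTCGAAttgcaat
rsp-1 and rsp-2, chrII:11453121-11453320, plus strand: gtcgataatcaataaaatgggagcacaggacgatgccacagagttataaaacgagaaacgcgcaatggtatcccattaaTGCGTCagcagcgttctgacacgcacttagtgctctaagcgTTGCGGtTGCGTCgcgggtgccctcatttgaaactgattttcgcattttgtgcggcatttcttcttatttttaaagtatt
snr-1, chrIV:17087474-17087673, plus strand: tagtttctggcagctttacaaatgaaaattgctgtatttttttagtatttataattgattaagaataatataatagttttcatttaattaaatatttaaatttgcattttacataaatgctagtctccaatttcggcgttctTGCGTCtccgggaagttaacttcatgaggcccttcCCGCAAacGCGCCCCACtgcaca
prp-40, chrIII:9521820-9522019, plus strand: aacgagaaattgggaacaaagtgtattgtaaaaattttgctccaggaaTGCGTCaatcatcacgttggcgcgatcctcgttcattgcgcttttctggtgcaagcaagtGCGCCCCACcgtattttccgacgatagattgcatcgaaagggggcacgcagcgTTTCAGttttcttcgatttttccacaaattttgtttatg
hrpf-2, chrIV:6376662-6376861, minus strand: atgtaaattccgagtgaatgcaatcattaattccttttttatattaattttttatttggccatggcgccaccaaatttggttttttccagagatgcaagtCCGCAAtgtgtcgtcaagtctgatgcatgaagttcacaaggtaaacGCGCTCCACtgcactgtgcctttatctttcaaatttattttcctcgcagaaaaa
rsp-3, chrIII:12688069-12688268, minus strand: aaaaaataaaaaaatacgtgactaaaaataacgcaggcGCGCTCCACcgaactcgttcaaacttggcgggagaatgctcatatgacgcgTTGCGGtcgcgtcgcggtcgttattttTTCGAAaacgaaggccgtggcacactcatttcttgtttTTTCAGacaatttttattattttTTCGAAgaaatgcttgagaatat
rsp-5 and snr-3, chrII:6489864-6490063, plus strand: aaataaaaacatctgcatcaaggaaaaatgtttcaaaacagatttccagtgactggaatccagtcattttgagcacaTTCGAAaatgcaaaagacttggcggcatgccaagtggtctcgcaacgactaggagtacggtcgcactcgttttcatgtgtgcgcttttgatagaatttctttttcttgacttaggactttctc

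Most splicing genes were listed in the unfiltered lists, and few in the thresholded set. In the pooled list 29 of the 47 genes had a summit (61.7%), beside 30.2% of all protein-coding genes. In the replicate 1 list 31 genes had one (66%), beside 28.4% of all. In the replicate 2 list 28 had one (59.6%), beside 27.8% of all. Both replicate lists held a summit for 25 genes (53.2%), beside 16.1% of all. Among the top 25% of pooled regions, those with a signal value of at least 30.2, 17 genes had a summit (36.2%), beside 11.6% of all. The thresholded set reached 4 genes, snr-4, rsp-1, rsp-2 and snr-1 (8.51%), beside 2.06% of all. The members' shares were above the background in each of these 6 counts. No test was made of these shares, since the genes were proposed with results of these data known and neighbouring genes can share a summit. The 29 genes in the pooled list stood on 27 distinct summits. Among listed genes the median signal value was 35.0 for the splicing genes, with a range of 15.4 to 111, and 25.7 for all protein-coding genes.

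The count of 4 genes in the thresholded set depends on how far a summit may lie from the gene. Within 250 bp only rsp-1 was left (1.26% of all genes), and with each summit given to its nearest protein-coding 5' end only snr-4 and rsp-1 were left (1.66% of all genes). Within 1000 bp prp-19 was added (2.86% of all genes). In the upper 399 summits of the thresholded set there was none of the 47 genes, and 1.06% of all genes. With the highest 798 summits of replicate 1 in place of the thresholded set, snr-1 dropped out (1.97% of all genes), and with those of replicate 2, prp-40 came in (1.88% of all genes).

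**Figure D1:**
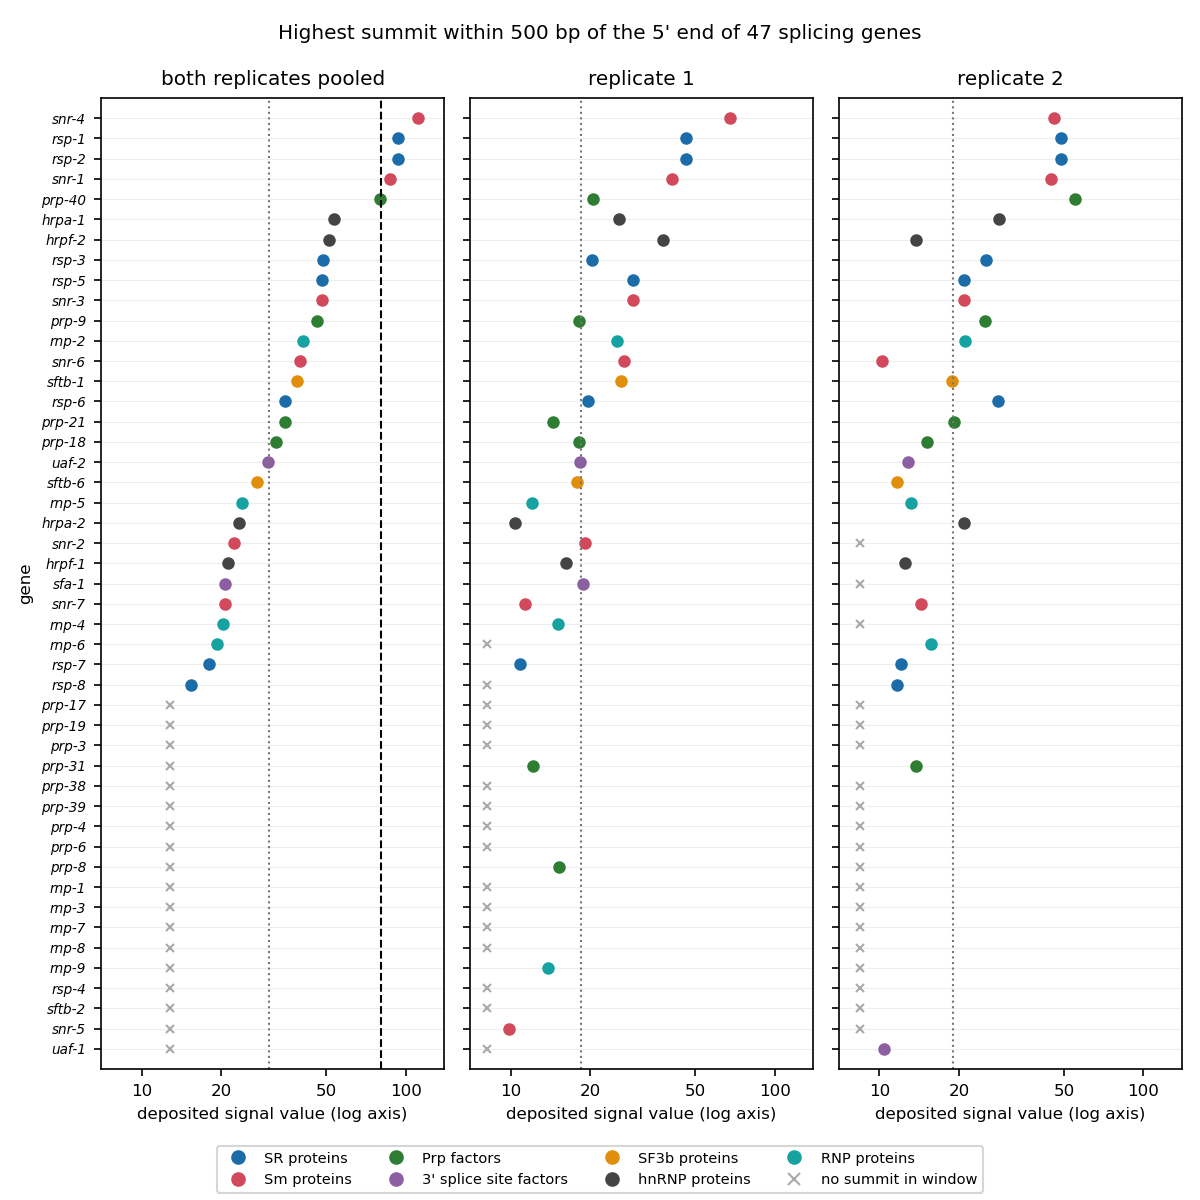
The signal value of the highest summit within 500 bp of the 5' end is plotted on a log axis for each of the 47 genes (rows) in the pooled and the replicate lists, coloured by family. A cross drawn left of the lowest value of the list marks a gene with no summit. Dotted lines mark the top 25% of each list and the dashed line the lowest thresholded value, 80.3, which 4 genes exceed and prp-40, at 79.9, just misses.

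The Sm genes encode the ring proteins of the snRNPs, and 6 of the 7 were listed in the pooled list (85.7%), beside 30.2% of all genes. Its top 25% held 4 of them (57.1%), beside 11.6%, and the thresholded set 2 (28.6%), beside 2.06%. The highest value of all 47 genes was at snr-4, which encodes SmD2. Its signal value was 110.8 in the pooled list, 67.6 in replicate 1 and 45.7 in replicate 2, which put it at ranks 404, 260 and 730 of those lists. The pooled summit lay at chrV:11980076, 353 bp upstream of snr-4, and the replicate summits were 43 bp apart. That summit is nearer to RNA genes than to snr-4. It lies inside C52E4.14, a short non-coding RNA gene on the other strand, and 42 bp before an snRNA gene (WBGene00014291, C52E4.8 in RefSeq). Whether the signal belongs to snr-4 or to the RNA genes was not tested. The 144 bases of the snRNA gene have an identical copy elsewhere on V (WBGene00014517), where the 3 bases next to the gene match and the bases before them do not continue to match. Within 500 bp of that copy the pooled signal value was 18.1 and that of replicate 1 was 22.3, and replicate 2 and the thresholded set listed none. The high value was at the copy beside snr-4, in the pooled list and in both replicate lists.

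The gene for SmD3, snr-1, had 87.1 in the pooled list, 40.8 in replicate 1 and 44.8 in replicate 2, at ranks 681, 858 and 768. The 2 replicates placed their summits 32 bp apart. The pooled summit, at chrIV:17087574, was 475 bp upstream of snr-1 and 136 bp upstream of snx-13, a sorting nexin gene on the other strand. This is the listed gene closest to the edge of the 500 bp window. The gene for SmD1, snr-3, shared its summit with rsp-5 and had 48.2 pooled, 29.0 in replicate 1 and 20.8 in replicate 2. The gene for SmE, snr-6, had 39.8 pooled, 26.9 in replicate 1 and 10.2 in replicate 2. The last of these was near the lowest value of its list, 9.93, and its summit was 157 bp from that of replicate 1. The gene for SmG, snr-7, had 20.6, 11.3 and 14.4, with the pooled summit 443 bp inside the gene and the replicate summits 356 bp apart. The gene for SmB, snr-2, had 22.3 pooled and 19.2 in replicate 1, and was not listed in replicate 2. The gene for SmF, snr-5, was listed in replicate 1 alone, at 9.9. High and low values thus stood side by side among proteins of the same ring.

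Among the SR genes, 7 of the 8 were listed in the pooled list (87.5%), beside 30.2% of all genes. Its top 25% held 5 (62.5%), beside 11.6%, and the thresholded set 2 (25%), beside 2.06%. These 2, rsp-1 and rsp-2, lie head to head with their 5' ends 407 bp apart and shared a single summit at chrII:11453221, 141 bp upstream of rsp-1 and 266 bp upstream of rsp-2. Its value was 93.4 pooled, 46.4 in replicate 1 and 48.9 in replicate 2, at ranks 580, 640 and 635, with replicate summits 27 bp apart. Rank and position were close in both replicates. The gene for the SF2/ASF orthologue, rsp-3, had 48.4 pooled, 20.3 in replicate 1 and 25.4 in replicate 2. Its summit was 247 bp upstream of rsp-3 and 149 bp upstream of spin-4, its head-to-head neighbour.

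A second shared summit joined an SR gene to an Sm gene. The pair rsp-5 and snr-3 lie head to head with 5' ends 404 bp apart, and the summit at chrII:6489964 stood almost midway, 201 bp upstream of rsp-5 and 203 bp upstream of snr-3. Its rank was 2303 in the pooled list, 1922 in replicate 1 and 4597 in replicate 2. Further SR genes had lower values. The SRp20-like gene rsp-6 had 35.0 pooled, 19.7 and 28.1, but its replicate summits were 244 bp apart. The gene of the p54-like protein, rsp-7, had 17.9, 10.9 and 12.1, with replicate summits 699 bp apart on either side of the 5' end. The transformer-2-like gene rsp-8 had the lowest pooled value of the listed genes, 15.4, 444 bp inside the gene, and 11.6 in replicate 2 alone. The SC35-like gene rsp-4 was not listed in any of these lists, and its nearest pooled summit was 996 bp upstream.

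**Figure D2:**
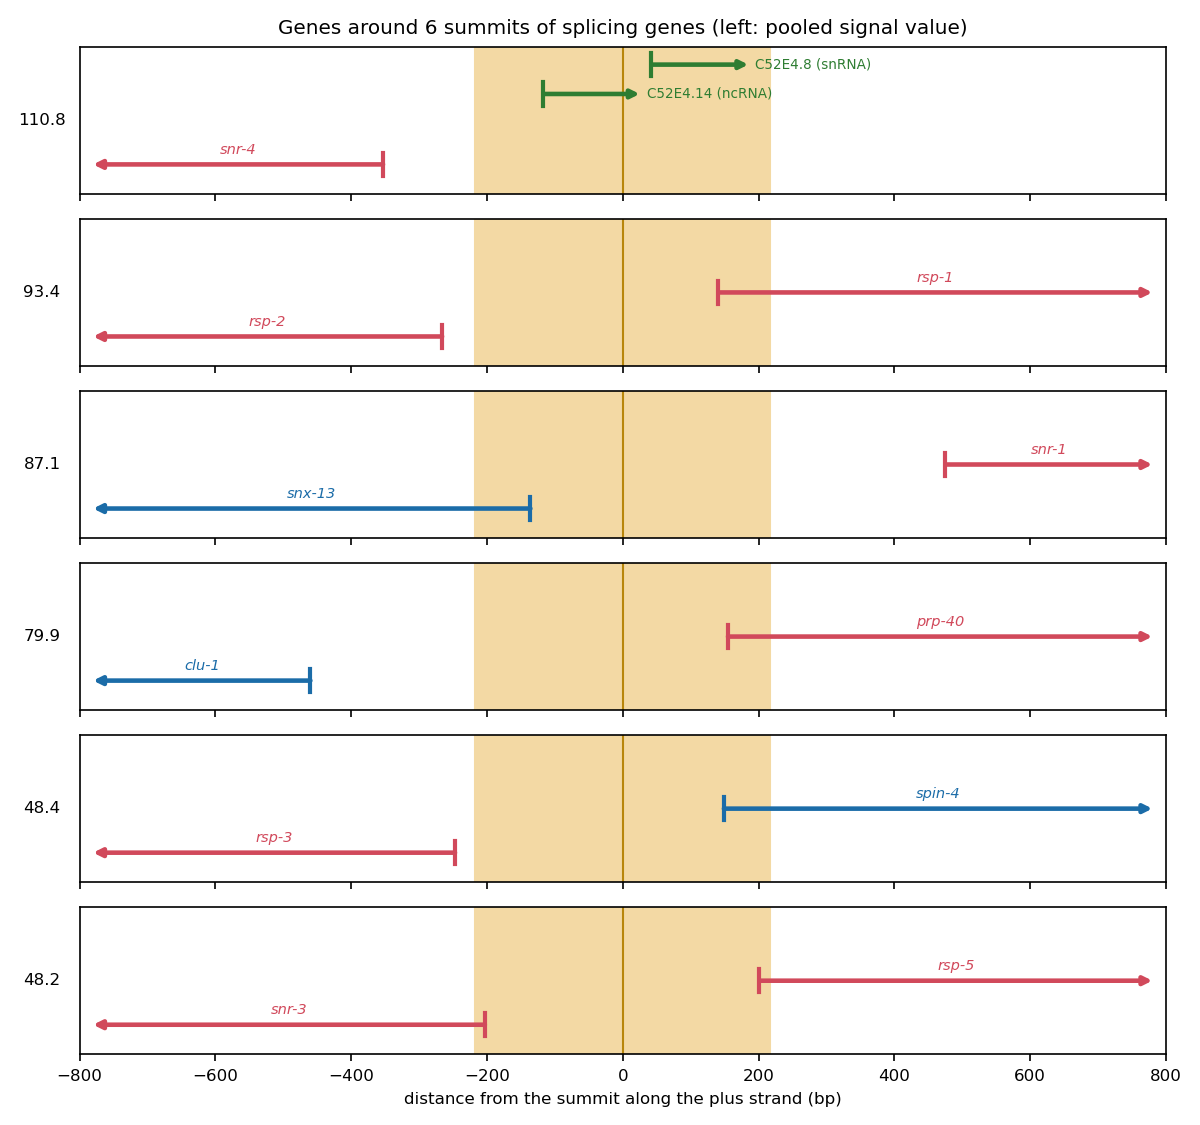
Genes on both strands are drawn to scale around 6 pooled summits (vertical line at 0, shaded deposited region), with the distance in bp along the plus strand and the pooled signal value at the left. Splicing genes are red, other protein-coding genes blue and RNA genes green; a bar marks each 5' end. The summit stands between 2 splicing genes at rsp-1 with rsp-2 and at rsp-5 with snr-3, and beside an snRNA gene at snr-4.

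Of the 13 Prp genes 4 were listed in the pooled list, and all 4 were in its top 25%. The listed share, 30.8%, was near the 30.2% of all genes, while the SR and Sm shares were 87.5% and 85.7%. The share in the top 25%, also 30.8%, was above the 11.6% of all genes. Both replicate lists held a summit for 5 of the 13, beside 16.1% of all genes. The highest of the Prp genes was prp-40, whose product works with the U1 snRNP. It had 79.9 in the pooled list at rank 811, just below the lowest thresholded value of 80.3. In replicate 2 it had 55.0 at rank 458, the highest value of the 47 genes there, and in replicate 1 20.5 at rank 4691. The summit was 155 bp upstream in the pooled list and in replicate 2, and 31 bp upstream in replicate 1. No other splicing gene of the upper 5 pooled values differed this much between replicates. The yeast counterparts of prp-9 and prp-21 are subunits of the U2 factor SF3a. The first had 46.2 pooled, 18.2 in replicate 1 and 25.1 in replicate 2, and the second had 34.9, 14.5 and 19.2. The gene prp-18, named for a factor of the second step of splicing, had 32.3, 18.2 and 15.1, with a summit 145 bp upstream of prp-18 and 42 bp upstream of mccc-1.

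The remaining 9 Prp genes were not in the pooled list. Among them prp-31 was listed in both replicates, at 12.1 and 13.7, with summits 473 bp apart, and prp-8, the largest protein of the U5 snRNP, in replicate 1 alone at 15.2. The edge of the window matters for 2 of them. A pooled summit of 33.1 lay 520 bp upstream of prp-8, just outside. A thresholded summit of 144.8 lay 629 bp upstream of prp-19, a ubiquitin ligase needed to activate the spliceosome. It is higher than any value inside the window of the 47 genes, and it had 80.3 in replicate 1 and 65.0 in replicate 2. The 5' end of K10D2.5, on the other strand and 675 bp from that of prp-19, is nearer to it. The nearest pooled summit to rnp-7, the gene for the U1-70K protein, lay 625 bp inside the gene, at 23.1. Just inside the window were snr-1 at 475 bp, sftb-1 at 448 bp and rsp-8 at 444 bp.

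Of the 6 genes for SF3b, U2AF and SF1 only sftb-1 was above the listed members' median of 35.0, and uaf-1 and sftb-2 were not in the pooled list. The gene for the largest SF3b protein, sftb-1, had 38.7 pooled, 26.2 in replicate 1 and 18.9 in replicate 2. Its pooled summit was 448 bp upstream and only 25 bp from the 5' end of R10E4.1 on the other strand, and the replicate summits were 642 bp apart. Within 250 bp, or with summits given to the nearest gene, the value for sftb-1 was 16.5. The gene sftb-6 had 27.3, 17.8 and 11.7. The gene uaf-2, for the small U2AF subunit, had 30.0, just under the 30.2 that opens the top 25%, with 18.3 and 12.8 in the replicates and summits 4 bp apart. The large subunit's gene uaf-1 was listed in replicate 2 alone, at 10.4. The gene sfa-1, for the SF1 orthologue, had 20.7 pooled and 18.8 in replicate 1, and was not listed in replicate 2.

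All 4 genes named hrpa or hrpf, which encode hnRNP proteins, were listed in the pooled list, beside 30.2% of all genes. Its top 25% held 2 of them (50%), beside 11.6%. More hnRNP genes are among the other splicing genes described further on. Of these, hrpu-1, hrpk-1, hrpl-1 and sqd-1 were in the pooled list and hrpr-1 and ptb-1 were not. The gene hrpa-1, for an hnRNP A1 orthologue, had 53.6 pooled, 25.7 in replicate 1 and 28.3 in replicate 2, with a summit 92 bp upstream and no other coding or RNA gene beginning within 500 bp. The hnRNP F/H gene hrpf-2 had 51.1 pooled, 37.9 in replicate 1 at rank 1046 and 13.8 in replicate 2 at rank 12482. Its summits were 50 bp apart, so the replicates agreed on the place and not on the height. The genes hrpa-2 and hrpf-1 had 23.2 and 21.3 pooled, and their replicate summits were 364 and 159 bp apart. Of the 9 rnp genes 4 were listed in the pooled list (44.4%), beside 30.2% of all genes, and 1 in its top 25% (11.1%), beside 11.6%. The highest was rnp-2, one of a pair of genes for RNA-binding proteins of the U1 and U2 snRNPs, with 40.7 pooled, 25.2 in replicate 1 and 21.1 in replicate 2, though the replicate summits were 248 bp apart. The other gene of that pair, rnp-3, starts 73 bp after the end of rnp-2 on the same strand and was not listed. The nearest pooled summit to it was the one before rnp-2, 2236 bp upstream. The gene rnp-5, an RNPS1 orthologue, had 24.0 pooled, 12.02 in replicate 1 and 13.2 in replicate 2, with its pooled summit 302 bp inside the gene. The genes rnp-4 and rnp-6 had 20.4 and 19.2 and were each missing from the list of a replicate.

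Across the 47 genes, 24 were in the pooled list and in both replicate lists, and 13 were in none of the 3. Another 6 were in replicate 1 and not in replicate 2, and 3 in replicate 2 and not in replicate 1. Shares of all genes for these overlaps are not given here, so the counts describe the members only. Replicate 1 listed 66% of the members, beside 28.4% of all genes, and replicate 2 59.6%, beside 27.8%. Among the 25 genes in both replicate lists, Spearman's rho of the signal values was 0.534. It is a description over genes, some of which share a summit, from lists that share a control. The median distance between the replicates' highest summits was 96 bp. They lay within 100 bp for 13 of the 25 (52%), beside 52.3% of all protein-coding genes in both lists. In this respect the splicing genes were close to all genes. The 4 thresholded genes had replicate summits within 43 bp.

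**Figure D3:**
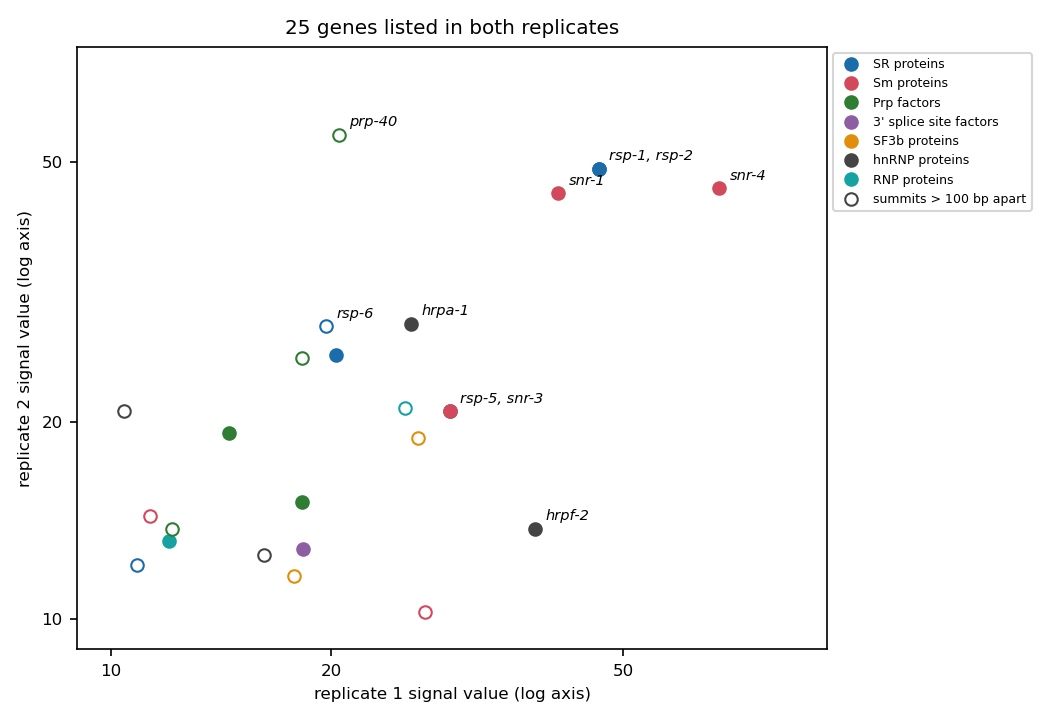
Each point is a gene with a summit in both replicate lists (25 genes), with the replicate 1 signal value across and the replicate 2 value up, both on log axes. Open points have replicate summits over 100 bp apart (12 genes). The genes snr-4, rsp-1, rsp-2 and snr-1 are above 40 in both, prp-40 is high in replicate 2 alone, and hrpf-2 is higher in replicate 1.

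Summits at splicing genes lay mostly upstream. The highest pooled summit was upstream of the 5' end for 24 of the 29 listed genes (82.8%), beside 61.4% of all listed protein-coding genes. The median place was 201 bp upstream, against 79 bp upstream for all listed genes. For 16 of the 29 genes it lay 100 to 300 bp upstream, a span for which no share of all genes is given here. Cytosolic ribosomal protein genes were alike in this, with 51 of 62 upstream (82.3%) and a median of 273 bp upstream. The other splicing genes described further on were nearer to all genes, with 27 of 40 upstream (67.5%) and a median of 114 bp. With each summit given to its nearest gene the share was 68.2%, beside 57.9% of all. Of the 27 distinct summits 20 lay outside protein-coding genes (74.1%), beside 50.4% of the summits of all listed nuclear genes. In the top 25% all 15 distinct summits did, beside 62%. The 5 summits inside their own gene, at rnp-5, hrpf-1, snr-7, rnp-4 and rsp-8, had pooled values of 24.0 or lower.

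The genes also differed in the kind of promoter they have. A gene transcribed the opposite way began within 1000 bp for 27 of the 47 genes (57.4%), beside 17.7% of all protein-coding genes. Of these divergent genes 21 were listed (77.8%), beside 39% of all divergent genes, and 14 were in the top 25% (51.9%), beside 20.7%. Another 9 started within 500 bp after the end of a gene on the same strand, the arrangement found in operons, and 4 of them were listed (44.4%), beside 39.2% of all such genes, while 1 was in the top 25% (11.1%), beside 14.4%. None of these 9 was in the thresholded set, beside 1.87% of such genes. The last 11 had neither neighbour, and 4 were listed (36.4%), beside 25.3%, with 2 in the top 25% (18.2%), beside 8.38%. In the pooled list and in its top 25% the gap to all genes was widest for divergent genes. The thresholded set did not show this. It held 3 of the 27 divergent genes (11.1%), beside 4.83%, among them rsp-1 and rsp-2 with a single summit. Of the 11 with neither neighbour it held 1 (9.09%), beside 1.34%. At a divergent promoter a summit counts for both genes. For 17 of the 29 listed genes another protein-coding 5' end lay within 500 bp of the summit, and for 9 it was nearer than the splicing gene's own. These 9 were rsp-2, rsp-3, rsp-7, snr-1, snr-2, snr-3, prp-18, sftb-1 and rnp-6. The neighbour was itself a splicing gene at rsp-2, snr-3 and rsp-7, the last of which lies beside snu-13. The counts of 17 and 9 have no share of all listed genes beside them here and describe the members only.

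**Figure D4:**
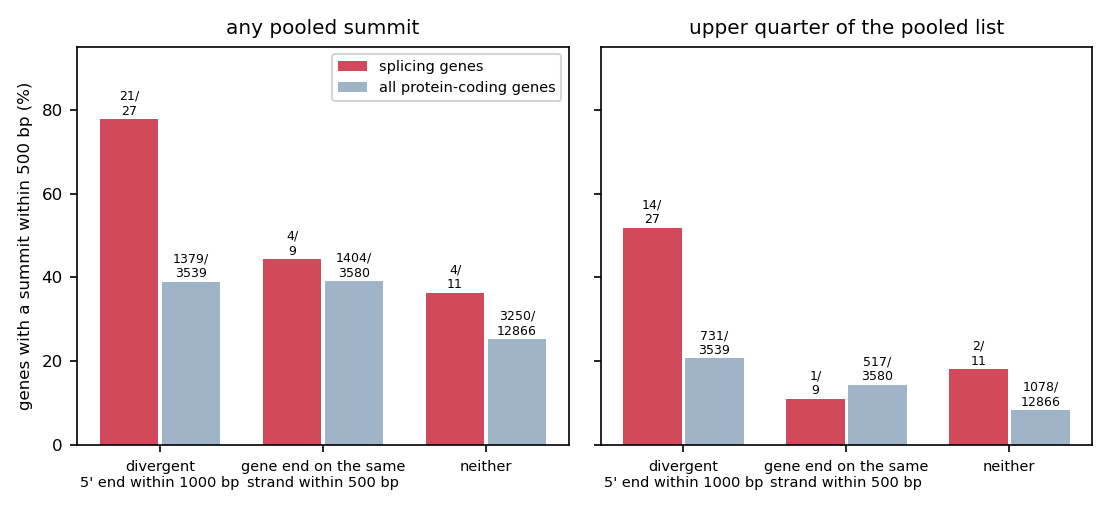
Bars starting at 0 give the percentage of genes with a pooled summit within 500 bp of the 5' end (left) or with one in the top 25% of the pooled list (right), by the kind of promoter. The pair of counts over each bar gives genes with a summit and genes of that kind. Divergent splicing genes stand at 77.8% and 51.9%, against 39% and 20.7% of all divergent genes.

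Letters were counted in the 200 bases around the 27 distinct summits and set beside the 5462 windows at the highest summits of all listed nuclear genes. TTTCAG, the usual end of a C. elegans intron, was in 11 of the 27 (40.7%), beside 31.5%. GAGAGA was in 4 (14.8%), beside 18.1%, while 34.2% of the 778 nuclear thresholded windows held it. CTGCGTCT was in 3 (11.1%), beside 4.82%, with 10.9% in the thresholded windows. The next 4 strings were chosen after these windows had been read, so their shares are descriptions only. TTCGAA, which reads the same on both strands, was in 12 windows (44.4%), beside 12% of all and 10.2% of thresholded windows. Of the 2080 possible 6-mers, reverse complements joined, it had the largest gap between the splicing genes and all genes. TTGCGG was in 8 (29.6%), beside 6.9% of all and 10% of thresholded windows. TGCGTC, which is part of CTGCGTCT, was in 8 (29.6%), beside 10.3% of all and 21.6% of thresholded windows. GCGCNCCAC was in 5 (18.5%), beside 1.26% of all and 2.44% of thresholded windows.

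The printed windows show how these letters fall. TTGCGG stands at snr-4, at the shared summit of rsp-1 and rsp-2, and at snr-1, hrpf-2 and rsp-3. GCGCNCCAC stands at snr-1, prp-40, hrpf-2 and rsp-3, and also at rnp-6. The windows of rsp-3 and snr-4 hold both TTGCGG and TTCGAA, whereas that of rsp-5 and snr-3 holds TTCGAA alone. In 11 of the 27 windows at least 2 of the 4 later strings occurred, and 4 windows, among them those of hrpa-1 and rnp-2, held none of the 7. The median content of G and C was 36.0% in the splicing windows, 37.0% in all windows and 44.5% in the thresholded windows. In the stretch from 250 bases before to 50 after the 5' end, TTCGAA was in 22 of the 47 splicing genes (46.8%), beside 18.2% of 19973 nuclear genes, listed or not. GCGCNCCAC was in 3 (6.38%), beside 0.721%, TTGCGG in 8 (17%), beside 7.55%, and TGCGTC in 7 (14.9%), beside 8.78%. Of the other strings, TTTCAG was in 32 (68.1%), beside 51.7%, GAGAGA in 10 (21.3%), beside 21.8%, and CTGCGTCT in 1 (2.13%), beside 3.54%. These stretches overlap summit windows in which the later strings were chosen, such as that of rsp-5 and snr-3, so they are no separate support. Genes that lie head to head, like this pair, can also share bases, and a match there counts for both. A match shows only that the letters are there.

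The other genes of the splicing machinery were taken from lists of 75 names, of which 72 were matched. Of these 40 were in the pooled list (55.6%, beside 30.2% of all genes), 19 in its top 25% (26.4%, beside 11.6%) and 7 in the thresholded set (9.72%, beside 2.06%). By group, beside the 30.2% of all genes, 6 of 8 Lsm ring genes (75%) and 5 of 8 helicases and partners (62.5%) were in the pooled list. Of the U5 and U2 core it held 2 of 8 (25%), near the share of all genes. It also held 3 of 4 snRNP assembly genes (75%). From a list of Prp19 complex and step factors, which also takes in cyclophilin genes such as cyn-1 and cyn-10, it held 8 of 16 (50%). From a mixed list it held 16 of 28 (57.1%). These are mostly RNA-binding regulators of splicing, with some snRNP proteins such as snu-13. Several of the 7 thresholded genes exceeded all of the 47 genes. The DEAH helicase gene mog-4 had 239.2 pooled, 106 in replicate 1 and 135 in replicate 2. The hnRNP gene sqd-1 had 170.2, 77.5 and 91.4. The cyclophilin gene cyn-10 had 139.1 pooled, 90.6 in replicate 1 and 46.7 in replicate 2. Lower values were found at lsm-6, which had 99.9, 69.0 and 43.7, at cyn-1, which had 87.0, 48.6 and 31.6, and at the SR protein kinase gene spk-1, which had 86.0, 46.7 and 39.7. All 7 summits lay upstream of the gene.

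Other groups of widely used genes also had shares above those of all genes. Cytosolic ribosomal protein genes were in the pooled list for 62 of 78 (79.5%) and in the thresholded set for 16 (20.5%). Proteasome subunit genes were in the pooled list for 22 of 33 (66.7%) and in the thresholded set for 2 (6.06%). Mitochondrial ribosomal protein genes were in the pooled list for 37 of 70 (52.9%) and in the thresholded set for 3 (4.29%). The splicing genes, at 61.7% and 8.51%, stood between these lists in the pooled count and between the ribosomal and the proteasome genes in the thresholded count. The median signal value of listed genes was 35.0 for splicing genes, 44.8 for cytosolic ribosomal, 30.6 for mitochondrial ribosomal and 26.4 for proteasome genes.

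By chromosome, 8 of 9 splicing genes were listed on II, beside 28.1% of all genes there, and 8 of 9 on IV, beside 29.6%. In the top 25% there were 6 on II, beside 10.8%, and 6 on IV, beside 10.5%. The 6 on II include rsp-1 with rsp-2 and rsp-5 with snr-3, pairs that share a summit. On III 7 of 13 were listed, beside 37%, and on X 1 of 2, beside 29.7%. On V 1 of 6 was listed, snr-4, beside 26.7%. On I 4 of 8 were listed, beside 33.5%, and none was in the top 25%, beside 13.8%. Among all protein-coding genes the listed share ran from 26.7% on V to 37% on III.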

How the data were processed

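Per the labels and the descriptions deposited with the samples, the authors made each region list from alignments of a replicate, or of both, with a control. The aligner, the caller, their versions and the IDR threshold are not given in the sources used here. The deposited lists give a signal value, a −log10 q-value and a summit offset per region. The −log10 q-value reached its ceiling of 2.44 at 5 members' pooled summits and was not used for ranking. Over the whole pooled list its median was 0.182. Among members in the top 25% it was as low as 0.72, at prp-18, and at rsp-8 it was 0.02. A listed summit, even in the top 25%, thus need not have a low q-value. Of 8 deposited lists the 4 on ce11 were used, and the ce10 lists were not used here. Gene models were those of Ensembl release 115. Summits, counted from 1, were assigned to 5' ends within 500 bp with Python 3.11.15, pandas 2.3.3 and numpy 2.4.6, and the assignment was checked on simulated summits. No test was run and no p-value is given: there is 1 group, so no conditions can be compared, and shares of genes were not tested because the genes were proposed with results known and neighbours share summits. The members and all lists were chosen with earlier results of these data known. Genes were named with values if thresholded, in the top 25%, in all 3 unfiltered lists, or just inside or outside the window, and others were added after their values were seen. The names gemi-2, luc7l-1 and tiar-3 were not matched. The values of 1 further gene of the splicing lists are not reported here. The alternatives were other windows, transcripts, assignment to the nearest gene, single replicates, region overlap and other set sizes.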

Additional observations from a re-analysis of the deposited data

How the results depend on the processing

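The counts depended on the window and on which gene a shared promoter was given to. In a 250 bp window 18 genes were in the pooled list (38.3%, beside 18.9% of all genes), 10 in both replicate lists (21.3%, beside 8.1%) and 1 in the thresholded set, beside 1.26%. With each summit given to the nearest protein-coding 5' end, 14 were in both replicate lists (29.8%, beside 13.9%), 11 in the top 25% (23.4%, beside 10%) and 2 in the thresholded set, beside 1.66%, and 68.2% of listed genes had an upstream summit. The upper 399 summits of the thresholded set held 0, beside 1.06%. When the 2 replicate lists had to hold summits within 100 bp of each other, 15 genes remained of 25. The share of all genes at that setting is not given here. From a single replicate, the pooled count and the count in both lists became 28 to 31, beside 27.8% to 28.4% of all genes. The thresholded count became 3 to 5, beside 1.88% to 1.97%. The top 25% became 14 to 16 and the upstream share 75% to 80.6%, both without a share of all genes here. A 1000 bp window and the 5' end of any transcript kept the counts within 1.5 times, as did region overlap for the pooled and thresholded counts and 1.5 times as many summits for the thresholded count. No paired analysis was possible because there is 1 group and no test. Depth is unknown, so an unlisted gene cannot be told from one read too thinly.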
